A study of Mus musculus with 8 samples.

Results

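The genes of cholesterol synthesis and sterol handling were examined in the embryonic mouse dorsal forebrain, with and without a conditional deletion of Sufu. The set was a named list of 30 genes, matched by symbol among the 43629 genes of the deposited tables, and all 30 were found. It comprised 20 enzymes from acetyl-CoA to cholesterol, 5 genes of the sterol-sensing system and 5 genes of sterol transport, and it does not take in every enzyme of the pathway. RNA came from dorsal forebrain of male embryos at E12.5 (E for embryonic day) of mixed background with C57BL/6J, all of the same age. The 4 Sufu-cKO samples carried Emx1-cre/+ with Sufu-fl/fl, with Cre from the Emx1 locus, which is active in dorsal telencephalic progenitors, acting on the floxed Sufu. The 4 control samples were Sufu-fl/fl or Sufu-fl/+, and which of these each one was is not given, nor is whether controls carried Cre. Nothing in the labels ties a sample to its own embryo or litter, and the p-values below rest on sample-to-sample spread that could be technical.

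Cholesterol is built from acetyl-CoA through mevalonate, isoprenoid units, squalene and lanosterol, and the last steps reduce and rearrange lanosterol to cholesterol. When sterols in the endoplasmic reticulum are scarce, SCAP escorts the SREBP transcription factors to the Golgi, where they are cut and released to switch on the synthesis enzymes, while INSIG proteins hold SCAP back when sterols are plentiful. The embryonic brain makes much of its own cholesterol, and sterols also act inside the Hedgehog pathway, in which SUFU restrains the GLI factors and cholesterol modifies both the ligand and Smoothened.

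The promoters of 3 of the enzymes described below are shown first, because these genes passed the test below and factors with these motifs are known to act on sterol genes. Each line gives the 250 bases before the RefSeq start site (GRCm38.p6, plus strand). Capitals mark matches, on either strand, to the sterol response element TCACNCCAC, the NF-Y box, spelled CCAAT on its own strand, and the Sp1 box, spelled GGGCGG.
Hmgcs1, chr13:119690101-119690350: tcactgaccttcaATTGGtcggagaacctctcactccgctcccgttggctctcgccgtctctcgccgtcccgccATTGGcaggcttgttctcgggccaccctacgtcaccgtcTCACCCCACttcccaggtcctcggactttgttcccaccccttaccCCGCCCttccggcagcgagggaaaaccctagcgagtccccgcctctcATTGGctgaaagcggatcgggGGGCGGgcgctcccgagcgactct
Lss, chr10:76531355-76531604: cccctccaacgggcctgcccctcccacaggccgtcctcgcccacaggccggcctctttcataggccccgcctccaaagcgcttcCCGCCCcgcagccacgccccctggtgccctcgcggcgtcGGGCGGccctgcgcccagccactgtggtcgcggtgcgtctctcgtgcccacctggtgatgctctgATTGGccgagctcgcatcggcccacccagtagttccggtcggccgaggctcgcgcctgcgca
Nsdhl, chrX:72918271-72918520: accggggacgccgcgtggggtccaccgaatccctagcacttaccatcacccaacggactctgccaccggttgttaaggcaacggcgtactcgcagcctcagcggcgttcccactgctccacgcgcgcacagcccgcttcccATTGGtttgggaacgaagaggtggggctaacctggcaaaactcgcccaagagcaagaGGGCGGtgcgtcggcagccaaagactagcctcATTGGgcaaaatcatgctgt
The Hmgcs1 promoter held 1 sterol response element, starting 137 bases before the start site, with 3 NF-Y boxes and 2 Sp1 boxes around it in the stretch shown. The Lss promoter held 1 NF-Y box and 2 Sp1 boxes, and the Nsdhl promoter held 2 NF-Y boxes and 1 Sp1 box. Pmvk had a promoter window at each of 2 start sites, with a single NF-Y box in one of them and none of these motifs in the other.

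Across the list, RefSeq promoter windows of 300 bases (250 before and 50 after the start) were found for 24 of the 30 genes. A gene with several windows was counted once if any of them matched. The NF-Y box was present in 21 of the 24 (87.5%), beside 41.1% of the 27025 genes with a window and 42.7% of the 10988 with a window that were tested for expression. The Sp1 box was present in 22 of 24 (91.7%), beside 38.2% of all genes with a window and 68.6% of those tested. The strict sterol response element matched only Hmgcs1 among the 24, and 1.44% of all genes with a window held it. The GLI site GACCACCCA matched none of the 24, beside 0.289% of all genes. In the stretches shown no matches share a base. A match is a description of these windows, not evidence of binding.

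All libraries were deep, with 27514357 to 34878838 counts per sample, and the least counted gene of the list, Idi1, had 67 to 105 counts. The labels were borne out by Sufu, which fell from 112 ± 9.13 CPM (counts scaled to library size; SD, n = 4) to 40.6 ± 4.64 (SD, n = 4), and by the Hedgehog targets Gli1 and Ptch1, which were 18.4-fold and 10.5-fold higher. Dorsal telencephalon markers were present in every library, summing to 1606 to 1815 CPM in control and 1328 to 1551 in Sufu-cKO. Of these 6 markers, Emx1, Emx2 and Lhx2 were called lower and Tbr1 higher. Markers of other cell types also differed between the groups, and no marker of these lists was at 0 in any library. Of all genes tested, 5.34% were called higher and 5.64% lower. The choroid plexus list, with 6 of 8 tested markers called lower, summed to 414 to 697 CPM in control and 64.3 to 233 in Sufu-cKO. Most of these sums was Ttr (means 465 and 143 CPM), which was not itself called (edgeR adjusted p = 0.0591). The microglia and macrophage list (4 of 10 lower) summed to 70.3 to 85.4 and 49.5 to 71.8, and the endothelium list (3 of 8 lower) to 287 to 332 and 247 to 294.5. The radial glia list (5 of 8 higher) summed to 2667 to 2914 and 3678 to 3853. Its markers Fabp7, Hes1 and Hes5 went the other way, at -0.34, -0.20 and -0.19 on the log2 scale, and were not called. The neuron list (2 of 7 higher) summed to 2198 to 2556 and 2571 to 2876. In it Neurod6 and Neurod2, not called, were at -0.28 and -0.22, and the other 5 were above 0. The erythroid list (0 of 10 called) summed to 3576 to 4714 and 3083 to 3547, and the pericyte list (1 of 6 lower) to 138 to 163 and 105 to 130. The meninges list (0 of 7 called) was at 441 to 472 CPM in control and at 325 to 372 in 3 mutants, with Mut_337 apart at 866. The GABAergic list (0 of 6 called) ran from 6.42 to 94.96 and from 23.8 to 165. Their part in the results below was not tested. In bulk tissue, fewer cells of a type and less RNA per cell cannot be told apart.

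The sterol genes of the dorsal forebrain changed little. With edgeR's quasi-likelihood test, adjusted over the 15382 genes tested, 4 of the 30 genes passed an adjusted p of 0.05. All 4 were synthesis enzymes and all were about 1.2-fold higher in Sufu-cKO, and no gene of the list passed in the other direction. Counted in either direction, the called share was 13.3% of the list, near the background of 11% of all genes tested. All calls of the list were higher, whereas all genes tested gave 5.34% higher and 5.64% lower. By part, the share was 20% of the 20 synthesis enzymes and 0% of the 10 sensing and transport genes. The fitted changes of the 30 ran from -0.27 to 0.29 on the log2 scale, with a median of 0.03, against 0.01 over all genes. All 30 were within 0.30 of no change, as were 76.5% of all genes tested. The median size of change regardless of sign was 0.11 in the list and 0.12 over all genes, and 0.10 over the 12005 genes with mean CPM in the range of the list.

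**Figure D1:**
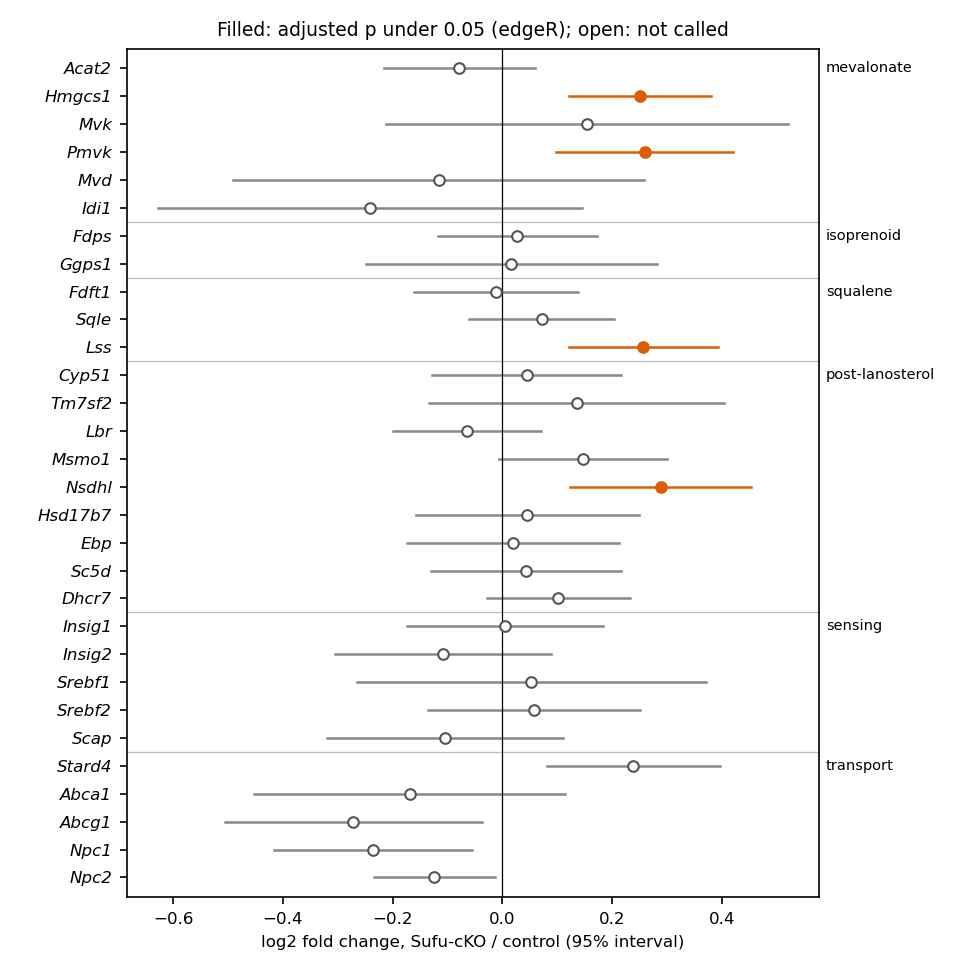
Fitted log2 fold change of each of the 30 genes, Sufu-cKO over control, with 95% intervals from edgeR, ordered by step of the pathway. Filled points are the 4 genes past an adjusted p of 0.05, all between 0.25 and 0.29, and the sensing genes all have intervals that span 0.

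The 6 genes of the mevalonate segment gave 2 of the 4 calls. Hmgcs1, the cytosolic synthase that makes HMG-CoA at the entry to the pathway, measured 567, 615, 569 and 536 CPM in controls Cont_294, Cont_345, Cont_365 and Cont_370. In the mutants, taken as Mut_295, Mut_317, Mut_337 and Mut_340 here and below, it measured 651, 668, 668 and 733 CPM. Every Sufu-cKO sample was above every control sample. The means were 572 ± 32.5 and 680 ± 36.2 CPM (SD, n = 4 each), a log2 fold change of 0.25 (SE 0.06, 95% interval 0.12 to 0.38, edgeR adjusted p = 0.0179). Pmvk, the kinase that adds the last phosphate to mevalonate before its decarboxylation, measured 27.1, 30.4, 28.5 and 29.9 CPM in controls and 36.1, 36.6, 34.7 and 31.3 in Sufu-cKO. The lowest Sufu-cKO sample, Mut_340, was just above the highest control, Cont_345. The rise was 0.26 (SE 0.07, edgeR adjusted p = 0.0427), the smallest margin of the 4 calls, and the call was lost with library size in place of TMM factors (adjusted p = 0.0726).

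The rest of the mevalonate segment did not pass. Acat2, which condenses acetyl-CoA units, was 228 ± 10.5 CPM in control and 216 ± 17.2 in Sufu-cKO (SD, n = 4 each). Mvk, the first mevalonate kinase, and Mvd, the decarboxylase, gave fitted changes of 0.15 and -0.12 with intervals of -0.21 to 0.52 and -0.49 to 0.26. These 2 genes spread widely among the mutants: Mvk measured 36.7, 27.5, 26.5 and 20.2 CPM across the 4, and Mvd 29.96, 23.8, 23.7 and 17.1. Both were highest in Mut_295 and lowest in Mut_340, and both overlapped the controls. Idi1, the isomerase that interconverts the isoprenoid units, was at 2.85 to 3.32 CPM in control and 1.96 to 3.01 in Sufu-cKO, and its interval, -0.63 to 0.14, was the widest of the list with Mvd and Mvk close behind.

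At the isoprenoid branch, neither gene passed. Fdps, the farnesyl diphosphate synthase, had a fitted change of 0.03 (-0.12 to 0.17), and Ggps1, which extends farnesyl to the geranylgeranyl unit used for prenylation, 0.02 (-0.25 to 0.28). The direction of Ggps1 turned under 2 alternative settings.

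Among the 3 enzymes from farnesyl to lanosterol, Lss passed. Lss, the cyclase that folds squalene epoxide into lanosterol, measured 95.2, 109, 97.1 and 98.6 CPM in controls and 119, 129, 118 and 112 in Sufu-cKO. The groups did not overlap, with Cont_345 the highest control and Mut_340 the lowest mutant, as for Pmvk. Its means were 100.1 ± 6.38 and 119.6 ± 6.88 CPM (SD, n = 4 each), a fitted change of 0.26 (SE 0.06, edgeR adjusted p = 0.0200). The 2 enzymes before it, squalene synthase (Fdft1) and squalene epoxidase (Sqle), which is a controlled step of the pathway, gave -0.01 (-0.16 to 0.14) and 0.07 (-0.06 to 0.20). Neither interval reached the size of the change fitted for Lss.

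Nsdhl was the single call among the 9 enzymes after lanosterol. This sterol dehydrogenase, which acts in the removal of the C4 methyl groups and is encoded on the X chromosome, measured 71.5, 75.0, 63.7 and 74.6 CPM in controls and 76.5, 87.7, 90.3 and 93.3 in Sufu-cKO. The gap was narrow at Mut_295 and wide for the other 3 mutants. The fitted rise of 0.29 (SE 0.08, 95% interval 0.12 to 0.45, edgeR adjusted p = 0.0286) was the largest of the list. Msmo1, the methyl oxidase of the same demethylation, had 135 ± 8.98 CPM in control and 149 ± 12.6 in Sufu-cKO (SD, n = 4 each), a fitted change of 0.15 (-0.01 to 0.30) that did not pass. Hsd17b7, the ketoreductase of that complex, gave 0.05 (-0.16 to 0.25).

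The other post-lanosterol enzymes did not pass either. Cyp51, the lanosterol demethylase, gave 0.04, Tm7sf2 and Lbr, which both reduce the C14 double bond, gave 0.13 and -0.06, the isomerase Ebp gave 0.02, and Sc5d, the desaturase after it, gave 0.04. Dhcr7, the reductase whose loss in humans causes Smith-Lemli-Opitz syndrome, gave 0.10 with an interval of -0.03 to 0.23. In this segment 8 of 9 fitted values were above 0, and over the 20 synthesis enzymes 15 were, with a median of 0.04. The summed level of the 20 enzymes was 2197 ± 101 CPM in control and 2368 ± 103 in Sufu-cKO (SD, n = 4 each). The ranges, 2087 to 2307 and 2265 to 2511, overlapped. Hmgcs1 alone made up 572 CPM of the control mean and 680 CPM of the Sufu-cKO mean.

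**Figure D2:**
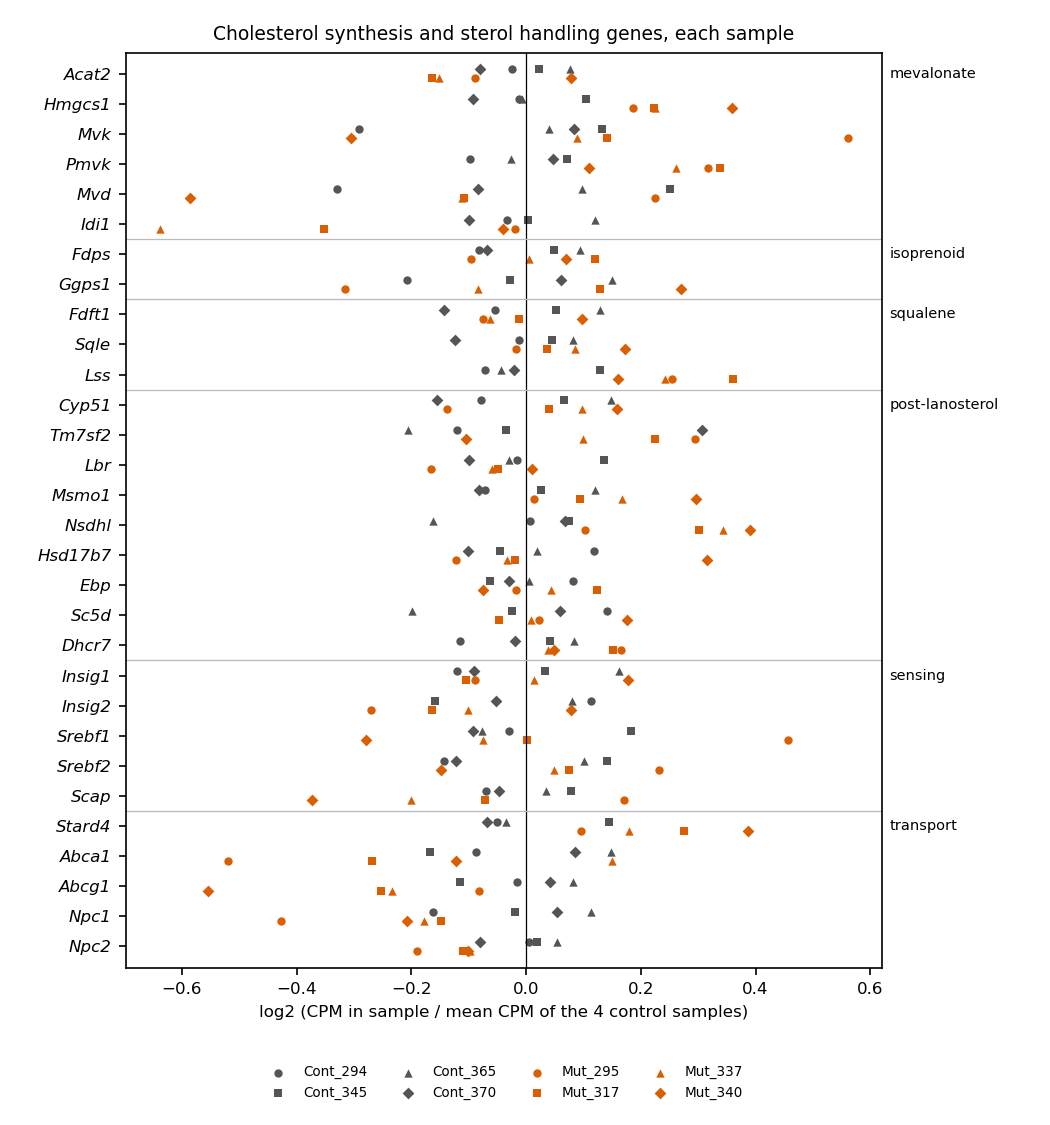
Each sample's level of the 30 genes as log2 of its CPM over the mean CPM of the 4 control samples, control samples in grey and Sufu-cKO in orange, one marker shape per sample. The 4 groups of orange points that lie wholly to the right of the grey ones belong to Hmgcs1, Pmvk, Lss and Nsdhl, and those of Npc2 lie wholly to the left.

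None of the 5 sensing genes passed the test. Srebf2, which encodes the SREBP that acts chiefly on cholesterol genes, was 243 ± 24.8 CPM in control and 252 ± 26.98 in Sufu-cKO (SD, n = 4 each). Srebf1, whose product acts chiefly on fatty acid genes, was 67.6 ± 6.18 and 70.1 ± 15.96 CPM, and its mutants ran from 92.8 in Mut_295 to 55.7 in Mut_340. Scap gave -0.11 (-0.32 to 0.11) and followed the same order, from 104 CPM in Mut_295 to 71.2 in Mut_340. Insig1, itself a target of the SREBPs, gave 0.00 (-0.17 to 0.18), with controls at 53.7 to 65.3 CPM and mutants at 54.3 to 66.1, and Insig2 gave -0.11 (-0.31 to 0.09). The level of mRNA does not report on the cleavage of SREBP proteins, which was not measured.

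Of the 5 transport genes, 4 had fitted values below 0, and none was called. Stard4, a soluble carrier that moves cholesterol between membranes, came closest, with 125, 143, 126 and 123 CPM in controls and 138, 156, 146 and 169 in Sufu-cKO. One control, Cont_345, was above the lowest mutant, Mut_295. The fitted change was 0.24 (0.08 to 0.40) with an edgeR adjusted p of 0.0542, and with DESeq2 it was 0.0259. Npc1, the membrane protein that exports cholesterol from late endosomes, measured 34.9, 38.5, 42.2 and 40.5 CPM in controls and 29.1, 35.2, 34.5 and 33.8 in Sufu-cKO. Its lowest control, Cont_294, was below one mutant, and the fitted change of -0.24 (-0.42 to -0.06) had an edgeR adjusted p of 0.0992. Npc2, the soluble partner that hands cholesterol to NPC1, measured 166, 168, 172 and 157 CPM in controls and 145, 154, 155 and 154 in Sufu-cKO. These groups did not overlap, but the difference was small, -0.12 (-0.23 to -0.01), and did not pass (edgeR adjusted p = 0.159).

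The efflux transporters gave values of the same sign. Abcg1, which exports sterol to lipoprotein particles, was 16.8 ± 0.981 CPM in control and 13.9 ± 1.83 in Sufu-cKO (SD, n = 4 each), a fitted -0.27 (edgeR adjusted p = 0.147). Abca1, which loads cholesterol onto apolipoproteins, gave -0.17 (-0.45 to 0.11), with mutants from 27.1 to 43.1 CPM and controls from 34.6 to 43.0. Cells of the macrophage lineage are known to express both transporters. The sums of their markers and of those of other cell types are given above, and their part in these values was not tested. In all, 4 of the 5 transport genes had an unadjusted p under 0.05, 1 higher and 3 lower, beside 22.5% of all genes tested. The median of the 10 sensing and transport genes was -0.11.

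Over the 30 genes, 8 had an unadjusted p under 0.05 (5 higher, 3 lower), beside 22.5% of all genes. Groups did not overlap for 5 of the 30, or 16.7%, beside 16.2% of all genes. For the 26 genes without a call, 23 had a 95% interval inside 0.5 in either direction on the log2 scale, and their bounds ran from -0.63 to 0.52. The SE of these 26 was 0.05 to 0.18. In the authors' deposited table, none of the 30 genes had a false discovery rate under 0.05 (Nsdhl 0.0519, Hmgcs1 0.0889, Lss 0.109, Stard4 0.145, Pmvk 0.187), 7 had a p under 0.05, and 5.78% of its genes with counts passed, or 9.34% of the genes tested here. The 4 calls also changed when single samples were left out, as did the share of all genes called, which was 11% with all samples. Leaving out Cont_294 or Cont_365 left 0 of the 30 genes called (7 at an unadjusted p under 0.05 in each case). The share of all genes called was then 8.13% and 7.63%. Without Cont_370, 1 was called, Nsdhl, beside 10% of all genes. Without Mut_317 or Mut_337, 1 was called, Hmgcs1, beside 8.56% and 9.18% of all genes. Leaving out Cont_345 or Mut_340 ended the call of Nsdhl, and leaving out Cont_345 or Mut_295 that of Pmvk. The fitted changes of the 4 genes stayed between 0.21 and 0.34 in all 8 such fits.

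In 2 of the 4 mutants, Mut_295 and Mut_340, deviations from the genotype mean followed the GC content of the transcripts. The longest transcripts of the 30 genes ranged from 40.1% to 59.1% GC, and 6 exceeded 55%: Mvk, Pmvk, Mvd, Srebf1, Srebf2 and Scap. Of these 6, 5 were highest of the mutants in Mut_295 and all 6 were lowest in Mut_340. Of the other 24, 14 were highest in Mut_340 and 15 lowest in Mut_295. Across the 30 genes, the deviation from the genotype mean correlated with GC at r = 0.73 in Mut_295 and r = -0.86 in Mut_340, and across the 10363 genes with a mean above 3 log2 CPM at 0.60 and -0.60. The lean was strongest in these 2 mutants but not confined to them. Over the 30 genes r was 0.25 in Mut_317 and 0.08 in Mut_337. It was -0.41, 0.40, 0.01 and 0.02 in Cont_294, Cont_345, Cont_365 and Cont_370. Over the 10363 genes r was 0.11 in Mut_317 and -0.03 in Mut_337, and -0.40, 0.13, 0.27 and -0.01 in the controls in the same order. These are correlations across genes that share a library, given as description. Each deviation is from the mean of the same 4 samples, so a lean in 1 sample brings an opposite lean among the others. The opposite signs of r in Mut_295 and Mut_340 are therefore partly built in.

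**Figure D3:**
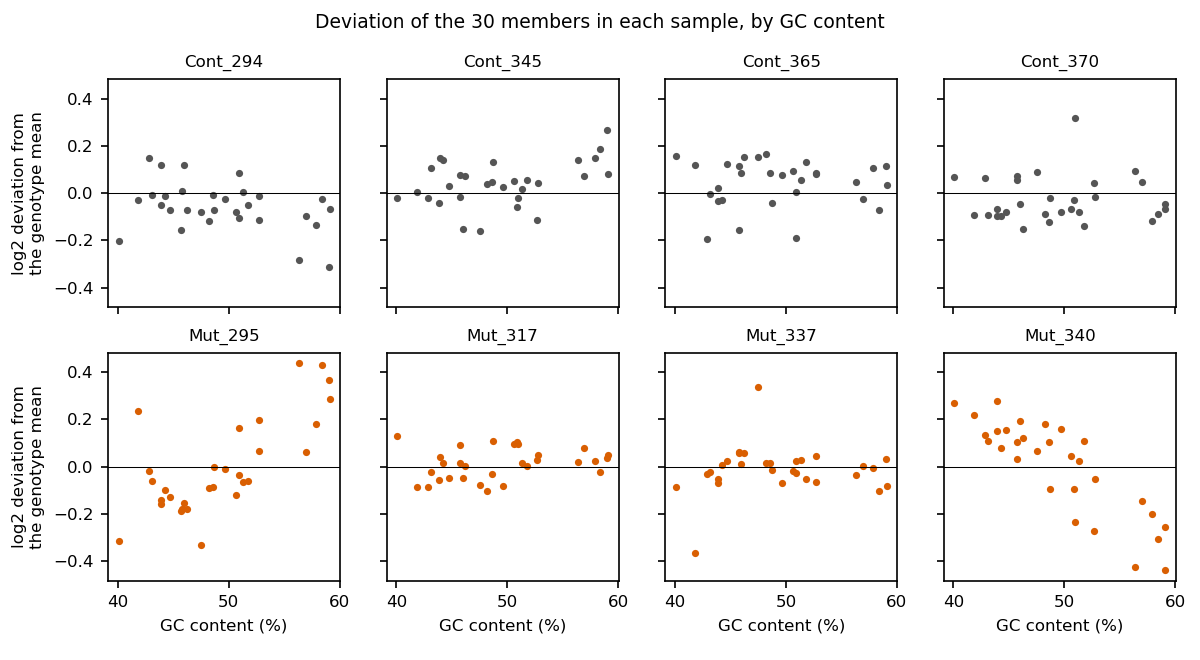
Deviation of each of the 30 genes from its genotype mean (log2) against the GC content of its longest transcript (%), one panel per sample, controls above and Sufu-cKO below. The points rise with GC in Mut_295 and fall with GC in Mut_340, and the other 6 panels are flatter.

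With an offset for GC in each sample, an alternative chosen after the data were seen, the median SD of the 6 GC-rich genes among mutants fell from 0.27 to 0.11 on the log2 scale, and that of the other 24 from 0.12 to 0.09. Among controls it went from 0.14 to 0.12 for the GC-rich genes and from 0.10 to 0.11 for the other 24. The offset was fitted to the trend with GC in these same counts. A smaller spread of the GC-rich genes is therefore partly built in and is given as description only. In that edgeR fit 6 of the 30 genes passed, beside 14.1% of all genes. These were the 4 above, Stard4 (adjusted p = 0.0399) and Npc1, which was lower in Sufu-cKO (adjusted p = 0.038). Without the offset, the fitted change between genotypes correlated with GC at r = -0.03 over the 30 genes. Over the 10363 genes with a mean above 3 log2 CPM it was -0.12.

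Levels along the pathway differed far more than genotypes did. Per kilobase of annotated exon in control, Hmgcs1 stood highest at 124 CPM per kb, followed by Acat2 (89.6), Cyp51 (45.1), Lbr (40.3), Sqle (33.9), Srebf2 (33.8) and Npc2 (30.5). The lowest were Tm7sf2 (4.26), Abca1 (3.75), Npc1 (3.45), Abcg1 (2.30) and Idi1 (0.871), a ratio of 143 from first to last. Of the 29 neighbouring pairs in this order, 21 had overlapping control ranges. The pairs that did not overlap included Hmgcs1 with Acat2, Acat2 with Cyp51, and Abcg1 with Idi1. With the length of the longest transcript in place of the exon union, Hmgcs1 stayed 1st and Idi1 30th. Of the 2 C14 reductases, Lbr was at 40.3 and Tm7sf2 at 4.26 CPM per kb, and of the SREBP genes Srebf2 ran from 30.6 to 37.2 and Srebf1 from 11.3 to 13.6 CPM per kb.

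**Figure D4:**
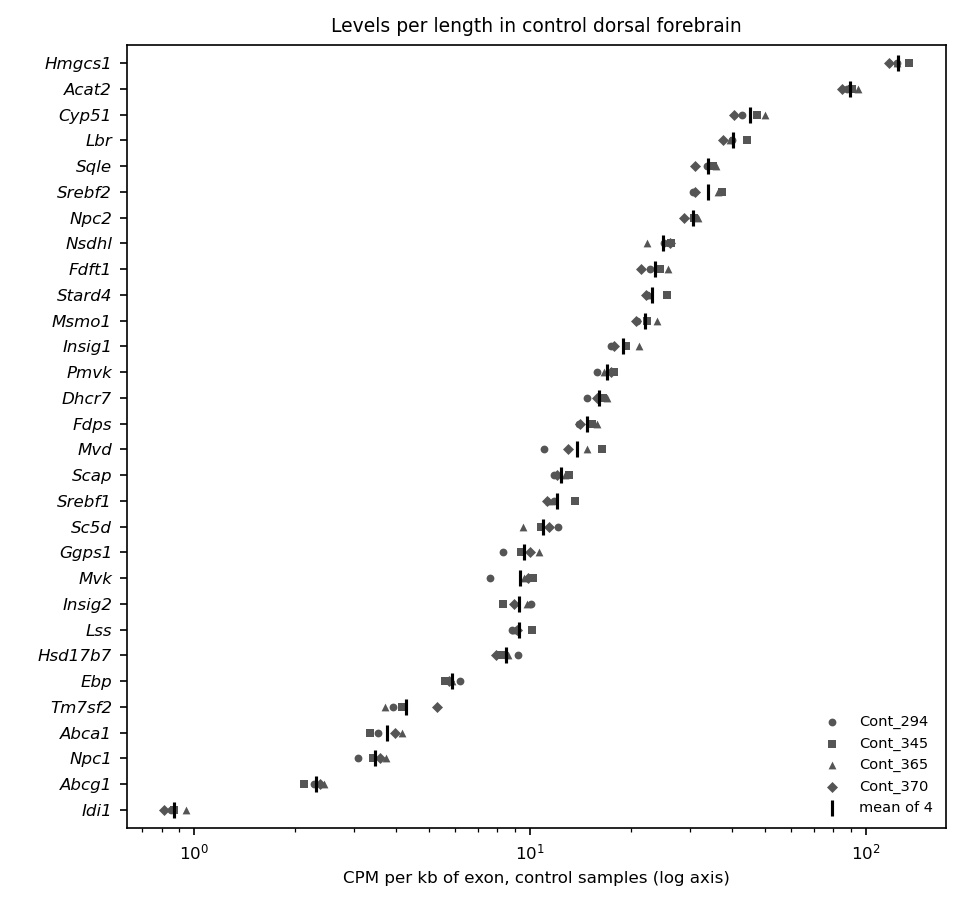
Control level of each of the 30 genes in CPM per kb of exon on a log axis, 1 point per control sample and a bar at the mean of 4. Hmgcs1 leads at 124, Idi1 is lowest at 0.871, and most neighbours in the middle of the order overlap.

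Some of these levels may be affected by shared sequence. Transcripts of other genes matched 33.3% of the longest Idi1 transcript at 98% identity or more over at least 100 bases, the highest share of the 30, and the closest of these genes had 0 to 3 counts per sample. For Acat2, a transcript of Tcp1, which had 17386 to 22804 counts, matched 19.8%. How the counting treated reads with several matches is not given in the sources used here. In all, 13 genes of the list had such matches, counted on either strand, Hmgcs1 (16.2%) among them, and 17 had none. For Ggps1, Fdft1, Lss, Srebf1 and Scap, the closest match was a gene that overlaps them on the opposite strand. Such a match can be the same stretch of genome and not a second copy. A gene with at least 100 counts in every sample overlapped 5 of the 30 on the genome (Ggps1, Fdft1, Tm7sf2, Srebf1 and Npc1), and whether the counts used strand is not given, so reads could be shared there. Replicates were tight, with a median coefficient of variation of 7.06% in control and 8.53% in Sufu-cKO, beside 8.36% and 10.4% over all genes tested.

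Around the 30 genes, larger changes were found in a wider list of 50 genes of sterol esterification, uptake, oxysterols, binding proteins and prenyl transfer, of which 48 could be tested. There 4 were higher and 3 lower, or 14.6%, beside the same background of 11%, and the median was 0.00. Vldlr, a lipoprotein receptor that also binds reelin, measured 30.8, 29.2, 30.4 and 35.4 CPM in controls and 49.3, 51.7, 53.0 and 59.0 in Sufu-cKO, a rise of 0.76 (SE 0.08, edgeR adjusted p = 7.96e-05). The second reelin receptor, Lrp8, rose by 0.38 (SE 0.07, edgeR adjusted p = 0.00454), from 185 ± 3.26 to 241 ± 26.4 CPM (SD, n = 4 each). Both receptors were higher in every mutant than in any control.

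Of the 8 tested genes of the oxysterol-binding protein family in this list, 1 was called higher, 1 lower and 6 were not called. Osbpl6 rose by 0.60 (edgeR adjusted p = 0.00289), and Osbpl5 was lower at -0.53 (edgeR adjusted p = 0.00274). Lima1, an actin-binding protein, rose by 0.37 (edgeR adjusted p = 0.00407). Of the 4 tested sterol hydroxylases in the list, Cyp46a1 and Cyp7b1 were lower, while Cyp27a1 (0.22, edgeR adjusted p = 0.597) and Cyp39a1 (0.00, edgeR adjusted p = 0.995) were not called. Cyp46a1, which makes the 24-hydroxycholesterol that leaves the brain, measured 11.3, 16.8, 14.4 and 16.8 CPM in controls and 9.40, 6.72, 7.65 and 8.01 in Sufu-cKO, a change of -0.90 (SE 0.15, edgeR adjusted p = 0.00198). Cyp7b1, an oxysterol hydroxylase named here only to complete the count of 7, went from 6.44 ± 0.998 to 3.52 ± 0.54 CPM (SD, n = 4 each), a change of -0.87 (edgeR adjusted p = 0.00488). All 7 kept their calls in each of the 8 fits without 1 sample and in the 8 other settings.

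Fatty acid genes that SREBP-1 is known to drive gave 2 calls among 12, both higher, or 16.7%, beside 11% of all genes in either direction and 5.34% higher. The median was 0.17, and 8 of the 12 fitted values were above 0. Those with the highest control CPM, Scd2, Acly and Fasn, gave -0.01, -0.07 and -0.08 and were not called. Scd1, a desaturase that makes monounsaturated fatty acids, went from 36.5 ± 3.43 to 61.3 ± 2.41 CPM (SD, n = 4 each), a rise of 0.75 (SE 0.07, edgeR adjusted p = 4.3e-05). Its 4 mutants were at 58.4, 61.6, 64.3 and 61.0 CPM and its highest control at 41.0. Fads2, a desaturase of polyunsaturated fatty acids, rose by 0.21 (edgeR adjusted p = 0.0349) but kept its call in 1 of the 8 fits without 1 sample (without Mut_340) and lost it with library size only (adjusted p = 0.0606). The radial glia list, with 5 of 8 markers called higher and the other 3 fitted below 0, is given above. Its part in these changes was not tested.

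**Figure D5:**
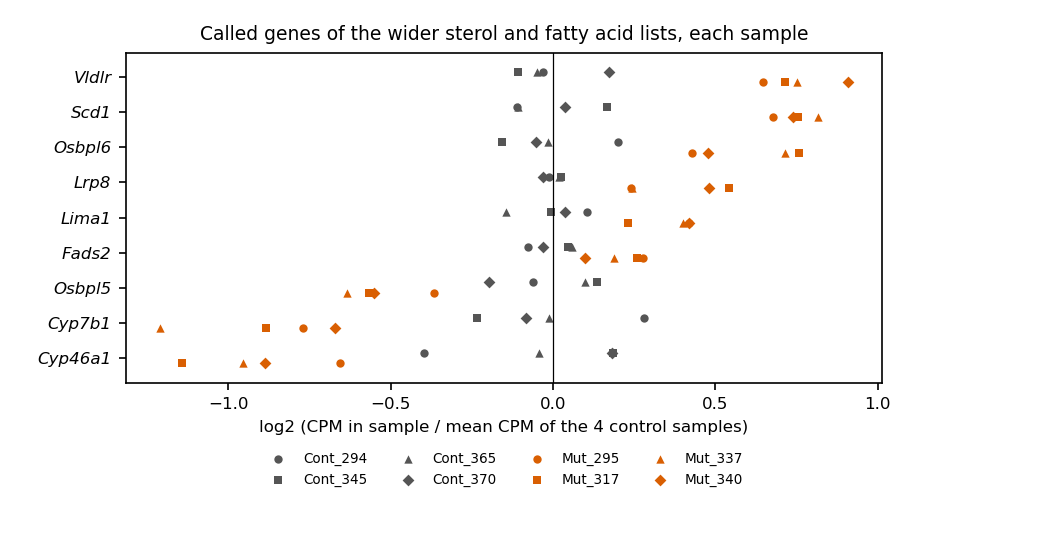
The 9 called genes of the wider sterol list and the fatty acid list, each sample as log2 of its CPM over the control mean, controls in grey and Sufu-cKO in orange. Vldlr and Scd1 show the widest separation upward and Cyp46a1 and Cyp7b1 downward, and no orange point reaches the grey ones for any of the 9.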

How the data were processed

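Libraries were made from total RNA with a stranded Illumina TruSeq mRNA kit and reads were aligned with STAR 2.4.2a to GRCm38, per the submitters' processing notes and the labels. The authors deposited raw counts per Ensembl gene and a second table with the signal of each sample (the counts divided by 1 size factor per sample, as the values show), a fold ratio, and p-values with a false discovery rate, whose program no source used here names. The counting program, with its strand setting, is not given in the sources used here.

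From the counts, edgeR 4.0.16 (R 4.3.3) was run with TMM factors, the filterByExpr defaults (minimum count 10, total 15) and the robust quasi-likelihood F-test, two-sided, with Benjamini-Hochberg adjustment over 15382 genes, and was tested on simulated data. CPM values use TMM library sizes. Intervals are at 95%. No litter or batch is labelled, so none was modelled. Alternatives were RLE factors, library size only, 2 other filters, DESeq2 1.42.0, limma-voom (limma 3.58.1), a non-robust fit, leaving out each sample, and a GC offset added later. Exon lengths, GC and transcript matches come from GENCODE M21, promoters from RefSeq. No 2 libraries of the same group agreed within sampling noise.

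The genes and lists were chosen with earlier results of these data known. All 30 genes are described. From the wider lists, up to 6 called genes with the smallest p were named, and 1 more to complete a count. The uncalled genes Cyp27a1, Cyp39a1, Scd2, Acly and Fasn were named beside them.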

Additional observations from a re-analysis of the deposited data

Results flagged for a closer look

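In each group of 4 samples, the highest or lowest value was compared with its nearest neighbour, and a gap above Dixon's critical share of the group's whole range was taken as outlying. Of the 78 groups checked (30 genes of the list and 9 others named, in each genotype), 3 had such a sample, and chance gives about 1 in 20. Stard4 was at 143 CPM in Cont_345, with the other 3 controls between 123 and 126 CPM. Npc2 was at 145 CPM in Mut_295, with the other 3 mutants between 154 and 155 CPM, and this sample is the farthest from the controls. Lima1 was at 93.1 CPM in Mut_317, with the other 3 mutants between 105 and 106 CPM, and is still above every control.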

How the results depend on the processing

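The 4 enzyme calls rest on changes of about 1.2-fold in 4 against 4 samples, and the number of calls in the list moved from 0 to 4 when single samples were left out, with 1079 to 1836 genes called over all. Hmgcs1 kept its call in 5 of the 8 such fits (adjusted p up to 0.0551), Lss in 3 (up to 0.0769), Nsdhl in 2 (up to 0.0942) and Pmvk in 1 (up to 0.128), and the cause was not tested. Under the other settings 3 to 6 of the 30 genes were called. Pmvk lost its call with library size only (0.0726), with no low-count filter (0.0658) and with at least 1 CPM in 4 samples (0.0543), while Hmgcs1, Lss and Nsdhl kept theirs in all 8 settings. DESeq2 called 2124 genes and the GC offset 2174, beside 1689.

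The directions that turned belonged to genes without a call. Ggps1 was at -0.0051 with library size only and -0.0388 with the GC offset. Insig1 was at -0.0149 with library size only, -0.0031 with no low-count filter, -0.0068 with at least 1 CPM in 4 samples and -0.0158 with the GC offset. When single samples were left out, the log2 change ranged from -0.0139 to 0.27 for Mvk, -0.25 to 0.0057 for Mvd, -0.0051 to 0.063 for Fdps, -0.085 to 0.11 for Ggps1, -0.065 to 0.026 for Fdft1 and -0.0129 to 0.097 for Cyp51. It ranged from -0.062 to 0.094 for Hsd17b7, -0.0154 to 0.048 for Ebp, -0.027 to 0.093 for Sc5d, -0.064 to 0.054 for Insig1, -0.11 to 0.14 for Srebf1 and -0.0074 to 0.11 for Srebf2. No paired analysis was possible because the labels give no litter or pairing.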
